A study of Mus musculus with 15 samples.

Results

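The tail downstream of Sμ is the stretch of mouse chromosome 12 from 114.64 Mb to just below 114.66 Mb on mm9, 20 kb of the immunoglobulin heavy chain locus (Igh) beyond the Sμ switch region in the direction of transcription. Its members are the junctions that class switch recombination high-throughput genome-wide translocation sequencing (CSR-HTGTS) placed there, in either orientation, when a break in 5′Sμ was used as the bait. Of 42200 junctions in 10 libraries, 2525 lay in the tail and 36735 in the Igh window from 114.45 to 114.7 Mb, the denominator of the shares below. The bait reads began at position 114664909, 4909 bp above the upper edge of the tail, and ran toward the tail up to the breakpoint. The members were chosen by position alone, and a position does not show that an end was resected.

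All libraries came from splenic B cells of C57BL/6 mice, matched littermates of 6 to 17 weeks, stimulated in culture with anti-IgD dextran, LPS and IL4 for 96 h. The genotypes were WT (3 libraries), Shld1-/- (3), Xlf-/- (2) and Shld1-/-Xlf-/- (2), the Shld1 allele being a deletion made with CRISPR, and each library is named here by genotype and the repeat number printed in the study's figures. The study analysed 3 mice of each genotype, but no table of junction positions for Xlf-/- repeat 3 or Shld1-/-Xlf-/- repeat 1 was used here. The genotype label of the deposit contradicts that printed genotype in 6 libraries and is the same in 4. The printed genotypes were matched through the number of Sγ1 junctions, and the Igh total printed beside it differs slightly from that of the deposited table in WT repeat 3 and Xlf-/- repeat 1. The labels call WT repeats 2 and 3 Shld1-/- and XLF-/-, Shld1-/- repeats 1 and 3 WT and Shld1-/-XLF-/-, Xlf-/- repeat 1 WT, and Shld1-/-Xlf-/- repeat 2 XLF-/-. WT repeat 1, Shld1-/- repeat 2, Xlf-/- repeat 2 and Shld1-/-Xlf-/- repeat 3 carry the same genotype in both, and the results are given below for the printed genotypes and also for the labels and for these 4 libraries. The libraries held 1590 to 8531 junctions, of which 72.9% to 95.4% lay in the Igh window. Each label also names an edit of Igh constant-region DNA as the target locus, one of them a deletion from Sm to Sa, but junctions in the Sγ1 window made up 25.2% to 64.2% of Igh junctions in the 10 libraries. No read name was shared by any of the 45 pairs of libraries.

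In class switch recombination, activation-induced deaminase (AID) starts breaks in Sμ and in a downstream switch region, and joining the pair deletes the DNA between them and puts a new constant region behind the variable exon. SHLD1 is a subunit of the shieldin complex, which acts below 53BP1 to protect broken ends from resection, the removal of one strand from the end inward. XLF is a classical end-joining factor that helps to align ends for ligation. A deletional junction keeps the orientation of the chromosome, whereas an inversional junction turns the DNA between the breaks around. Microhomology (MH) is the run of bases at a joint that could come from either end, and a direct joint has neither MH nor inserted bases.

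The tail covers constant-region exons behind Sμ, from exon 3 of the IgM gene onward. Of the 2525 members, 2453 (97.1%) had a stretch of 30 prey bases that occurs once on chromosome 12 of GRCm38 and lay at one common distance from their mm9 position, so these could be placed on the RefSeq annotation of GRCm38. There the upper edge falls in an intron of Ighm, the IgM constant gene (chr12:113418826-113422730, minus strand), between exon 2 and exon 3. From there to the lowest placed member, the stretch runs through exons 3 to 6 of Ighm, the gap of 2501 bp to Ighd, the IgD constant gene (chr12:113407535-113416324, minus strand), all 7 Ighd exons and 5621 bp beyond it. Exons 1 and 2 of Ighm and the switch repeats lie above the edge, between it and the bait. The AGCT motif, a hotspot of AID that fills the Sμ repeats and reads the same on both strands, was present in the first 20 prey bases of 230 of the 2525 tail junctions (9.11%). It was present in 62.4% of 13528 internal Sμ junctions, which are those between the upper edge of the tail and the bait, and in 7.70% of all 20-base windows of the matched GRCm38 stretch.

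The joints below show what a member looks like, read from the deposited reads 5′ to 3′ with 30 bait bases, then the MH in capitals, then 30 prey bases. The first line is the bait strand itself, the commonest base at each position of the tail reads, which equals GRCm38 over its 123 bases. Its capitals mark the 9 bases that reappear as MH in the joint with the longest MH. The next 4 lines are, for each genotype, the deletional joint with MH nearest to the genotype's median distance, and the last 5 are both joints with the longest MH, a joint seen in 3 libraries, the inversional joint with the longest MH and the farthest joint. Only reads free of mismatches over these bases were used.
5′Sμ bait, mm9 chr12:114664787-114664909, minus strand: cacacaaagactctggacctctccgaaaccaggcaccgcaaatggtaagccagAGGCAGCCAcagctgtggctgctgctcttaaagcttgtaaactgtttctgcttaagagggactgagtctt
WT repeat 2, junction at 114658754, 1246 bp below the edge: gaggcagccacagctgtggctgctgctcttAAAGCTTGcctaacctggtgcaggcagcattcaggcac
Shld1-/- repeat 3, junction at 114655604, 4396 bp below the edge: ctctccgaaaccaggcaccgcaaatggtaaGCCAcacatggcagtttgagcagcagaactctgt
Xlf-/- repeat 1, junction at 114657675, 2325 bp below the edge: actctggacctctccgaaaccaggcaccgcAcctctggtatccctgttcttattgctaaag
Shld1-/-Xlf-/- repeat 2, junction at 114656935, 3065 bp below the edge: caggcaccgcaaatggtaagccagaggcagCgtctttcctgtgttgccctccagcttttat
Shld1-/- repeat 1, junction at 114656469, 9 bp of MH: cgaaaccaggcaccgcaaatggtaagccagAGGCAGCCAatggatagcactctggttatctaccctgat
Shld1-/- repeat 1, junction at 114659403, 9 bp of MH, in 3 libraries: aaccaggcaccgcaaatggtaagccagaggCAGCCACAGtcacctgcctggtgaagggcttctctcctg
Shld1-/-Xlf-/- repeat 2, junction at 114659839, 4 bp of MH, in 3 libraries: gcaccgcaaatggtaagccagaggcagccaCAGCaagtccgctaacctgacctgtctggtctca
Shld1-/- repeat 2, inversional, junction at 114658809, 7 bp of MH: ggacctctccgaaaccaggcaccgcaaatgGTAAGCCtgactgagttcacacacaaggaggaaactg
Shld1-/-Xlf-/- repeat 3, junction at 114640125, 19875 bp below the edge: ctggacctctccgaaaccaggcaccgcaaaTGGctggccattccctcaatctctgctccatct

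The first comparison asks how often the 5′Sμ break was joined into the tail. In WT cells the tail held 3 of 4109, 15 of 8110 and 7 of 7533 Igh junctions in repeats 1, 2 and 3, or 0.0730%, 0.185% and 0.0929%. In Shld1-/- cells it held 373 of 2120, 578 of 2883 and 537 of 2532, or 17.6%, 20.05% and 21.2%. In Xlf-/- cells the counts were 87 of 2181 and 177 of 3684, or 3.99% and 4.80%. In Shld1-/-Xlf-/- cells they were 509 of 2424 and 239 of 1159, or 20.998% and 20.6%. The 5 SHLD1-deficient libraries were all above the 5 SHLD1-proficient ones, and the Xlf-/- libraries lay between WT and the SHLD1-deficient libraries with no overlap.

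**Figure D1:**
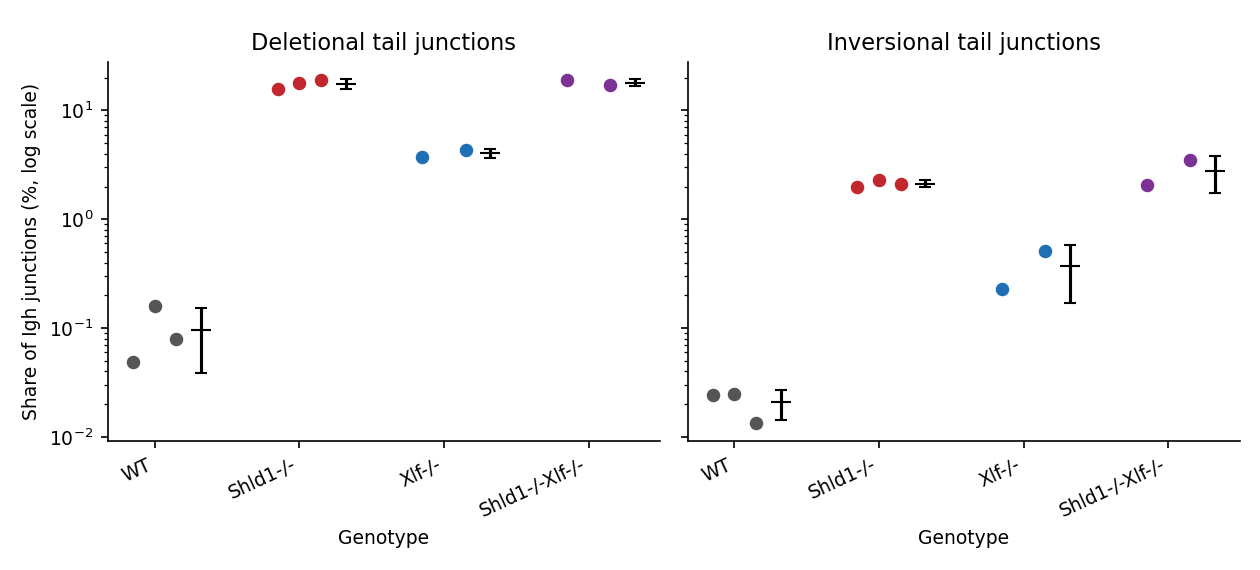
Deletional (left) and inversional (right) junctions in the tail as a percentage of all Igh junctions, on a log scale, by genotype. Each dot is a library, and the black bar and whiskers beside the dots are the mean and SD (n = 3, 3, 2 and 2). In both orientations the WT libraries are lowest, Xlf-/- libraries are next and the Shld1-/- and Shld1-/-Xlf-/- libraries are highest.

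The mean share was 0.117% ± 0.0597 (SD, n = 3) in WT, 19.6% ± 1.85 (n = 3) in Shld1-/-, 4.40% ± 0.577 (n = 2) in Xlf-/- and 20.8% ± 0.267 (n = 2) in Shld1-/-Xlf-/- cells. Within XLF strata, SHLD1 loss went with a share higher by 18.0 percentage points (exact permutation test over libraries, two-sided p = 0.0167, the smallest that the 120 arrangements allow, adjusted p = 0.0722 over 13 tests). The share in Shld1-/- cells was 168 times that in WT, and that in Shld1-/-Xlf-/- cells 4.73 times that in Xlf-/- cells. XLF loss went with a share higher by 2.74 points within SHLD1 strata (exact permutation p = 0.03, adjusted p = 0.0975 over 13 tests), with most of it among SHLD1-proficient cells. Xlf-/- cells were 4.28 points above WT, whereas Shld1-/-Xlf-/- cells were 1.19 points above Shld1-/- cells, and those libraries overlapped (exact permutation p = 0.6, where 0.1 is the smallest possible). The difference between these differences was not tested. The XLF difference missed the threshold in 9 of the 10 fits that left out 1 library.

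Grouped by the labels of the deposit, the SHLD1 difference was 7.59 points (exact permutation p = 0.31) and the XLF difference 6.11 points (exact permutation p = 0.283). By label, single groups spanned most of the range, with 0.0730% to 17.6% in libraries labelled WT, 0.185% to 20.05% in those labelled Shld1-/- and 0.0929% to 20.998% in those labelled XLF-/-. In the 4 libraries with 1 genotype in both sources the shares were 0.0730% in WT, 20.05% in Shld1-/-, 4.80% in Xlf-/- and 20.6% in Shld1-/-Xlf-/- cells, with 1 library each and no test. Wilson 95% intervals of a single library's share ran from 0.0248% to 0.214% in WT repeat 1 and from 16.0% to 19.3% in Shld1-/- repeat 1. These intervals cover counting error only, since amplified reads without molecular identifiers are not independent molecules. The permutation p-values compare whole libraries, and with so few libraries the number of arrangements limits how small they can be. The study describes the junctions of each genotype as coming from independent mice, but the labels do not say which library came from which mouse.

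The denominator moved with genotype, because Sγ1 junctions made up 57.2% to 64.2% of Igh junctions in WT, 46.5% and 52.0% in Xlf-/-, 25.6% to 31.7% in Shld1-/- and 25.2% and 25.9% in Shld1-/-Xlf-/- libraries. With the Sγ1 window left out of the denominator the tail held 0.171% to 0.512% in WT, 7.46% and 10.02% in Xlf-/-, 23.6% to 31.1% in Shld1-/- and 28.1% and 27.8% in Shld1-/-Xlf-/- libraries. Among deletional junctions between the lower edge of the tail and the bait, the tail took 0.126% to 0.523% in WT, 9.46% and 12.8% in Xlf-/-, 26.8% to 39.9% in Shld1-/- and 39.3% and 36.7% in Shld1-/-Xlf-/- libraries. A share for Sγ1 was taken over windows of other lengths, as deletional junctions from 114.562 to below 114.569 Mb among those from 114.562 to below 114.577 Mb. It was 0.402% to 0.586% in WT, 4.29% and 6.64% in Xlf-/-, 19.4% to 27.0% in Shld1-/- and 34.2% and 38.7% in Shld1-/-Xlf-/- libraries. Both tails ordered WT below Xlf-/- and Xlf-/- below the SHLD1-deficient libraries. Beyond the Sγ1 core the Shld1-/- and Shld1-/-Xlf-/- ranges did not overlap, and beyond Sμ they did. Because the windows differ in length, the Sμ and Sγ1 shares are not measured alike.

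The second comparison describes the decay of junctions with distance. Shld1-/- junctions stayed near one level over the first 5 kb, from 1.84% to 2.60% of Igh junctions per 1-kb bin, and then declined. Their highest bin was the nearest one, the first 1 kb below the edge, at 2.60% ± 0.137 (SD, n = 3), and the bin 2 to 3 kb below the edge followed at 2.44% ± 0.279. Shld1-/-Xlf-/- junctions were highest in the same nearest bin, at 3.86% ± 0.0325 (n = 2), and were at 1.92% in the 4th. Xlf-/- junctions went from 1.33% ± 0.0711 (n = 2) in the nearest bin to 0.333% in the 4th. WT junctions made up 0.0504% ± 0.00239 (n = 3) of Igh junctions in the nearest bin, and that bin held 10 of all 25 WT tail junctions. The farthest bin, 19 to 20 kb below the edge, held 5 junctions over the Shld1-/- libraries, 3 over the Shld1-/-Xlf-/- libraries and 0 over the Xlf-/- and WT libraries. A count of 0 allows a share of up to 0.0370% to 0.138% in these 5 libraries (3 counts per library).

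**Figure D2:**
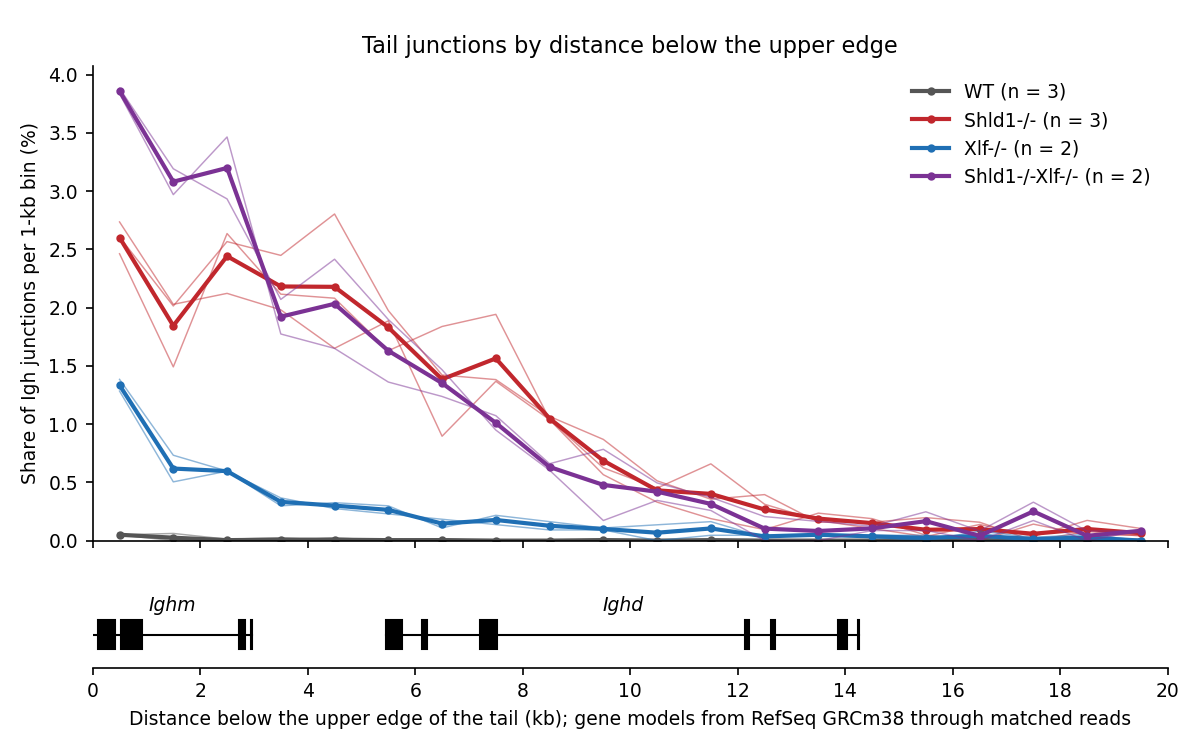
Share of Igh junctions (%) in each 1-kb bin of the tail against distance below the upper edge (kb). Thick lines with dots are genotype means, thin lines are single libraries, and the black boxes are RefSeq exons of Ighm and Ighd placed through matched reads. The Shld1-/- line is nearly level for 5 kb, the Shld1-/-Xlf-/- line starts at 3.86% and lies below it from the 4th bin to the 15th, and the WT line stays near 0.

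Of the 20 bins, 14 held at least 20 junctions, and in 12 of these every SHLD1-deficient library was above every SHLD1-proficient one. The same was true of 48.4% of all 62 bins of the Igh window with at least 20 junctions, and of 37.5% of the 48 outside the tail. The share in the tail was 85.7%. The minimum was counted over all 10 libraries together, so a bin could pass it through the SHLD1-deficient libraries alone. The 11th bin below the edge, for example, held 33 Shld1-/-, 16 Shld1-/-Xlf-/-, 5 Xlf-/- and 0 WT junctions. The filter thus favours bins that are high in SHLD1-deficient libraries, and the tail count is a description without a test. With the libraries grouped by the labels of the deposit, 0 of 14 tail bins and 0 of 62 bins of the locus (0%) separated. With the 4 libraries named alike in both sources, 12 of 14 tail bins did, against 34 of 62 bins of the locus (54.8%). The 1 kb just above the edge held 0.122% to 0.146% of Igh junctions in WT, 2.21% to 2.71% in Shld1-/-, 2.06% and 2.199% in Xlf-/- and 3.22% and 4.49% in Shld1-/-Xlf-/- libraries. The Xlf-/- libraries were therefore close to the Shld1-/- ones above the edge and at 1.28% and 1.38% against 2.46% to 2.74% in the first bin below it. The 20 kb beyond the lower edge held 14 to 25 junctions in Shld1-/- libraries, 17 and 7 in Shld1-/-Xlf-/-, 1 and 10 in Xlf-/- and 0 in each WT library.

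The median distance of the members was longest in Shld1-/- cells. It was 3987, 4645 and 4279 bp below the edge in Shld1-/- repeats 1, 2 and 3, 3065 and 3079 bp in Shld1-/-Xlf-/-, and 2174 and 2388 bp in Xlf-/- libraries. These 3 genotypes did not overlap, although each Shld1-/- library had at least 373 members and Xlf-/- repeat 1 had 87. The WT medians of 198, 1555 and 959 bp rested on 3, 15 and 7 junctions. SHLD1 loss went with a median 2.1e+03 bp longer (exact permutation p = 0.0167, adjusted p = 0.0722 over 13 tests), and XLF loss with one 72.7 bp longer (exact permutation p = 0.91). The XLF value averaged opposite differences, 1377 bp for Xlf-/- minus WT and -1232 bp for Shld1-/-Xlf-/- minus Shld1-/- cells (exact permutation p = 0.2 and p = 0.1, where 0.1 is the smallest possible). Without the WT libraries, SHLD1 loss went with a median 791 bp longer among XLF-deficient cells (exact permutation p = 0.333, the smallest possible). By label, the SHLD1 difference was 1.26e+03 bp (exact permutation p = 0.2), and the 4 libraries named alike in both sources had medians of 198 (WT), 4645 (Shld1-/-), 2388 (Xlf-/-) and 3079 bp (Shld1-/-Xlf-/-). With the printed genotypes the SHLD1 difference depended on the edge: with the edge 1 kb lower it was 149 bp (exact permutation p = 0.817), and with the edge 2 kb lower -145 bp.

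**Figure D3:**
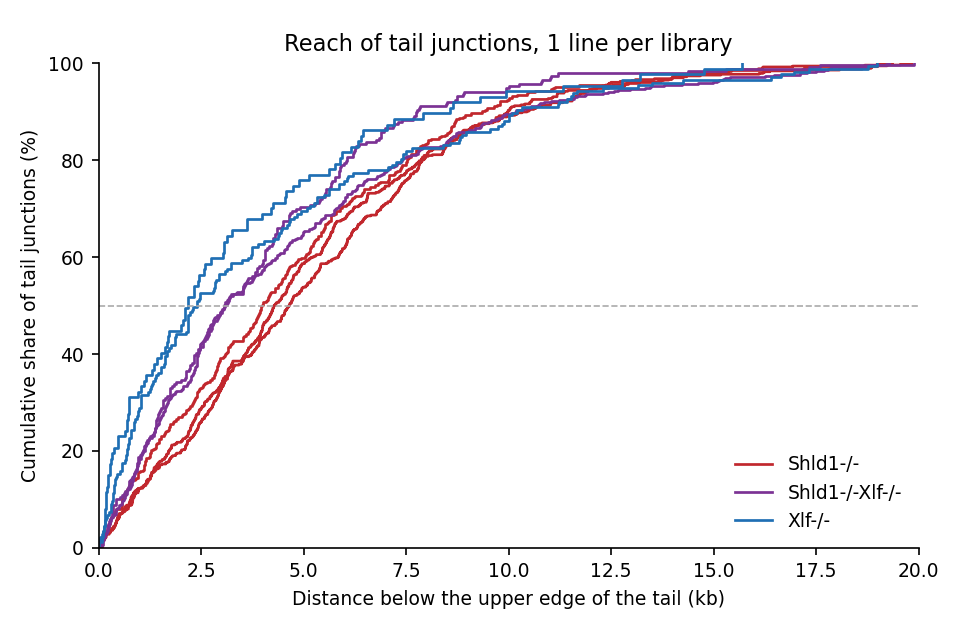
Cumulative share of tail junctions (%) against distance below the upper edge (kb), 1 line for each of the 7 libraries with at least 20 tail junctions. The dashed line marks 50%, which the Xlf-/- lines cross at 2174 and 2388 bp, the Shld1-/-Xlf-/- lines at 3065 and 3079 bp and the Shld1-/- lines between 3987 and 4645 bp.

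Shld1-/- libraries were above Shld1-/-Xlf-/- libraries from 5 to 10 kb and below them within 5 kb. Members in the first 5 kb made up 10.5% to 12.4% of Igh junctions in Shld1-/- and 13.7% and 14.5% in Shld1-/-Xlf-/- libraries. Those from 5 to 10 kb made up 5.75% to 7.08% and 5.12% and 5.09%, and those beyond 10 kb 1.32% to 2.19% and 2.19% and 1.04%. The ranges did not overlap below 10 kb, in opposite directions, and overlapped beyond it. In Xlf-/- libraries the 3 steps held 3.03% and 3.34%, then 0.734% and 0.896%, then 0.229% and 0.570%.

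A deletion from 5′Sμ into the tail takes at least exons 1 and 2 of the IgM gene from the chromosome, and many members took all of its exons. Of 2182 deletional members placed on GRCm38, 1262 (57.8%) lay past the last annotated Ighm exon, so that the deletion took every exon of Ighm, and 65 (2.98%) lay past the last Ighd exon as well. The share past Ighm was 60.5%, 67.7% and 66.2% in Shld1-/- repeats 1, 2 and 3, 49.9% and 48.7% in Shld1-/-Xlf-/-, and 41.2% and 40.4% in Xlf-/- libraries. It was 7 of 21 over the 3 WT libraries. Of the 1262, 848 came from Shld1-/- libraries, and the share was above 50% in these libraries only. As with the median distance, the 3 mutant genotypes did not overlap. By position, 678 of the 2453 placed members fell in Ighm introns, 337 in Ighm exons, 584 between Ighm and Ighd, 621 in Ighd introns, 157 in Ighd exons and 76 beyond Ighd. Ighm exons held 22.3% and 27.1% of the members of Xlf-/- libraries and 9.30% to 13.6% of those of Shld1-/- libraries, and they lie within 3 kb of the edge, where Xlf-/- members were most frequent.

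The third comparison concerns orientation. Deletional members outnumbered inversional ones in all 10 libraries. The counts of deletional and inversional junctions were 2 and 1, 13 and 2, and 6 and 1 in WT repeats 1 to 3, and 331 and 42, 512 and 66, and 484 and 53 in Shld1-/- repeats 1 to 3. They were 82 and 5 and 158 and 19 in Xlf-/-, and 459 and 50 and 198 and 41 in Shld1-/-Xlf-/- libraries. Inversional junctions thus made up 11.3%, 11.4% and 9.87% of Shld1-/- members, 5.75% and 10.7% of Xlf-/- members and 9.82% and 17.2% of Shld1-/-Xlf-/- members. The 3 mutant genotypes overlapped.

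As a share of Igh junctions, inversional members followed the order of deletional ones, from 0.0133% to 0.0247% in WT to 0.229% and 0.516% in Xlf-/-, 1.98% to 2.29% in Shld1-/- and 2.06% and 3.54% in Shld1-/-Xlf-/- libraries. The inversional percentage itself differed by -2.11 points with SHLD1 loss (exact permutation p = 0.65) and by -4.72 points with XLF loss (exact permutation p = 0.46). The WT percentages of 33.3%, 13.3% and 14.3% rested on 4 inversional junctions. Among the 7 libraries with at least 20 tail junctions, the inversional percentage was lower in the tail than in internal Sμ in every library, by 8.20 points on average (exact sign-flip permutation p = 0.0156, the smallest possible, a choice of libraries made after their counts were seen). In the 3 libraries left out, all WT, it was higher in the tail, by 29.6, 6.44 and 6.01 points. Internal Sμ had 3.77% to 8.28% in WT, 13.1% to 18.8% in Shld1-/-, 17.8% and 21.9% in Xlf-/- and 22.9% and 24.4% in Shld1-/-Xlf-/- libraries. Over all 10 libraries the difference was -1.54 points (exact sign-flip permutation p = 0.746).

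Inversional members lay farther out than deletional ones in 6 of these 7 libraries. In Shld1-/- libraries the median distance was 4442, 5098 and 5502 bp for inversional and 3924, 4589 and 4215 bp for deletional members. In Shld1-/-Xlf-/- libraries it was 5830 and 4065 bp against 2952 and 2923 bp. In Xlf-/- repeat 1 the order was the other way, 1614 bp for 5 inversional members against 2252 bp, and in Xlf-/- repeat 2 it was 4774 bp for 19 against 2180 bp. The inversional percentage beyond 5 kb was 12% to 13.5% in Shld1-/- and 14.7% and 21.1% in Shld1-/-Xlf-/- libraries, and within 5 kb it was 7.30% to 10.8% and 7.23% and 15.5%. This difference between near and far members was not tested.

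The fourth comparison concerns the joints themselves. Of the 2525 members, 335 (13.3%) had inserted bases, and MH was read from the other 2190. Direct joints made up 15 of 329, 30 of 510 and 20 of 466 of these in Shld1-/- repeats 1 to 3, or 4.56%, 5.88% and 4.29%. They made up 5 of 72 and 8 of 144 in Xlf-/-, or 6.94% and 5.56%, and 34 of 445 and 13 of 202 in Shld1-/-Xlf-/- libraries, or 7.64% and 6.44%. WT libraries had 0 of 2, 3 of 14 and 0 of 6. Direct joints were rare in all mutant libraries. As aligned, the Shld1-/-Xlf-/- values were above all 3 Shld1-/- values, but the exact-base recount given below did not keep this separation.

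Direct joints were fewer in the tail than in internal Sμ in 10 of 10 libraries, by 13.7 points on average (exact sign-flip permutation p = 0.00195, the smallest possible, adjusted p = 0.0254 over 13 tests). Internal Sμ had 31.1% to 35.4% direct joints in WT, 16.9% to 18.5% in Shld1-/-, 12.6% and 16.2% in Xlf-/- and 9.27% and 7.92% in Shld1-/-Xlf-/- libraries. The WT gaps of -31.1, -12.1 and -35.4 points rested on 2, 14 and 6 tail joints, and over the 7 libraries with at least 20 tail junctions the difference was -8.27 points (exact sign-flip permutation p = 0.0156, the smallest possible). The gap was smallest in Shld1-/-Xlf-/- cells, where internal Sμ was itself low. Internal Sμ as counted here holds exons 1 and 2 of Ighm as well as the switch repeats. Of its junctions, 29.0% to 49.3% were flagged for mapping quality against 0 in the tail. Without flagged junctions the difference kept its direction and stayed past the threshold. SHLD1 loss went with -0.722 points of direct joints in the tail (exact permutation p = 0.983) and XLF loss with 0.617 points (exact permutation p = 0.96), and both rest on the 22 WT joints. Without WT repeat 2, which held all 3 direct WT joints, the differences were 2.85 and 4.19 points (exact permutation p = 0.0333 for each). That removal left WT with 0 of 2 and 0 of 6 direct joints, which placed every mutant library above WT by that choice alone. No conclusion can be drawn from these p-values.

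**Figure D4:**
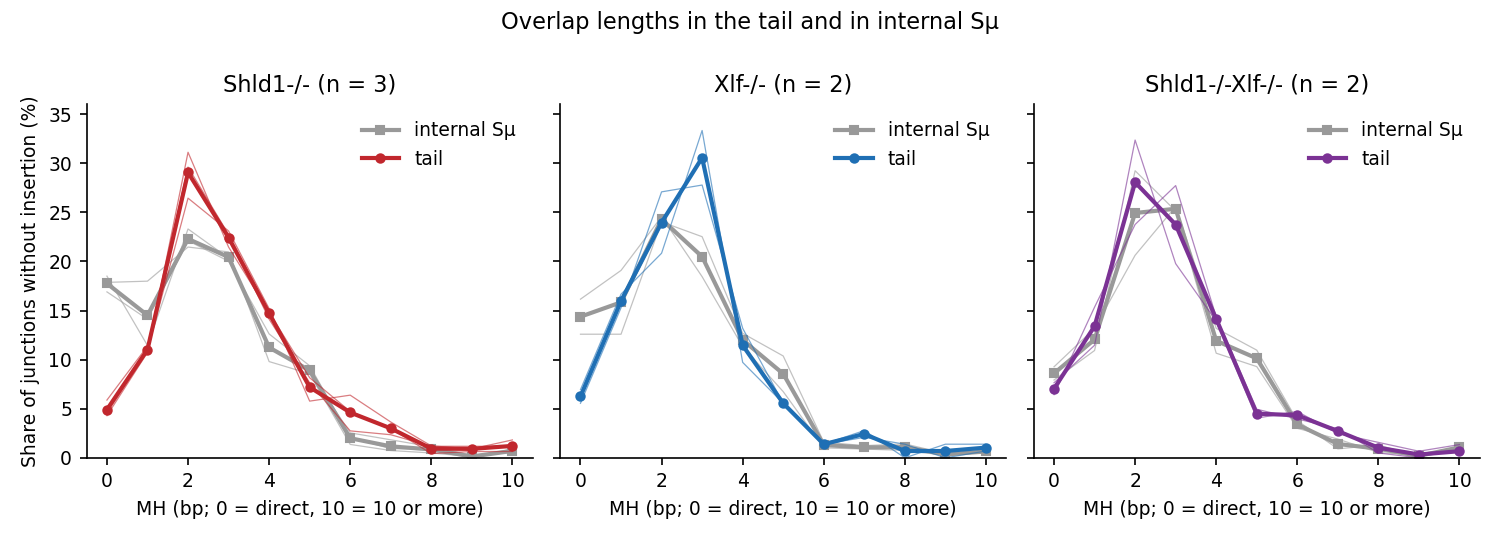
Share of junctions without insertion (%) by MH length (bp) in the tail (coloured) and in internal Sμ (grey), for the 3 mutant genotypes. Thick lines with symbols are means over libraries and thin lines are single libraries. Direct joints (0 bp) are lower in the tail in every panel, with the largest gap in Shld1-/- cells, and the tail lines peak at 2 or 3 bp.

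The commonest MH in the tail was 2 bp in Shld1-/- cells, at 29.1% ± 2.38 (SD, n = 3) of joints, and 3 bp in Xlf-/- cells, at 30.6% ± 3.93 (n = 2). MH of more than 3 bp made up 35.0%, 30.4% and 32.4% of joints in Shld1-/- repeats 1 to 3, 22.2% and 24.3% in Xlf-/- and 28.8% and 26.7% in Shld1-/-Xlf-/- libraries. The 3 mutant genotypes did not overlap, with Shld1-/- highest. The WT shares were 0 of 2, 2 of 14 and 4 of 6. SHLD1 loss went with 5.04 points more long MH (exact permutation p = 0.667) and XLF loss with -4.28 points (exact permutation p = 0.86), again with the WT joints in the fit. Without WT repeat 3 the SHLD1 difference was 15.0 points (exact permutation p = 0.0167) and the XLF difference 5.64 points (exact permutation p = 0.383). That removal took out the WT library with the highest share and kept 0 of 2 and 2 of 14, so no conclusion can be drawn from it. Against internal Sμ the tail had 6.68 points more long MH (exact sign-flip permutation p = 0.291), higher in 6 and lower in 4 libraries. As aligned, all 3 Shld1-/- libraries had more in the tail, 30.4% to 35.0% against 21.7% to 26.9%.

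The length of the longest MH depended on alignment mismatches. The deposited read positions gave 23 members with an overlap of 10 bp or more, up to 17 bp. Of the 2013 placed members with an overlap, 1905 (94.6%) kept its length when only bases identical in the read, the bait and the prey were counted. Of 16 placed members at 10 bp or more, 0 remained there, and the longest exact MH was the 9 bp printed above. Overlaps of more than 3 bp went from 637 to 546, and their share became 26.2% to 29.7% in Shld1-/-, 16.9% and 21.8% in Xlf-/- and 22.5% and 23.7% in Shld1-/-Xlf-/- libraries. For MH of more than 3 bp the order of the mutant genotypes was the same with exact bases. For direct joints the Shld1-/- and Shld1-/-Xlf-/- libraries then overlapped, at 4.73% to 7.46% against 8.33% and 6.70%. Internal Sμ was not recounted, so the comparisons of MH and direct joints between tail and internal Sμ have no exact-base check.

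Some joints recurred between libraries. The members used 2074 positions and strands, of which 1710 held 1 junction and 256 were used in more than 1 library. Of 2391 distinct joints, defined by prey position, orientation, bait breakpoint and overlap, 74 (3.09%) were present in more than 1 library and 5 in 3 libraries. All 74 were deletional, as were 2245 of all 2525 members, and in each of the 74 the reads differed from each other in sequence or length. Their overlap was longer than that of the other joints, with a median of 4 bp against 2 bp, and 44 of 74 (59.5%) had more than 3 bp against 23.9% of joints in 1 library. Direct joints or those with 1 bp made up 2 of the 74. Of 72 placed on GRCm38, 41 (56.9%) had more than 3 bp with exact bases. Recurrence was spread over 16 of the 45 pairs of libraries, with at most 12 joints in a pair, 2.12% of the distinct joints of Shld1-/- repeat 2 and 2.41% of those of Shld1-/-Xlf-/- repeat 2. In internal Sμ 6.93% of 11769 distinct joints recurred, with a median overlap of 3 bp against 1 bp. The recurring joint with 4 bp (CAGC) at 114659839 was present in Xlf-/- repeat 2 and in both Shld1-/-Xlf-/- libraries, and the one with 9 bp (CAGCCACAG) at 114659403 in Shld1-/- repeats 1 and 2 and Shld1-/-Xlf-/- repeat 2. Whether such joints arose independently in each culture was not tested.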

How the data were processed

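For each library the authors amplified from a 5′Sμ primer, sequenced with paired ends, mapped the reads to mm9 and deposited a table of junctions, each row giving where its bait and prey parts lie on mm9 and on the read, their strands and filter flags, in no normalized unit. Per the labels the aligner was Bowtie2. Its version is not given in the sources used here. The methods say that duplicates were removed, but rows flagged as duplicates are in the tables (3.14% to 4.99% of internal Sμ rows, none in the tail).

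From these rows, junctions in the tail (chromosome 12, 114640000 to below 114660000) were counted as a share of those from 114450000 to below 114700000. MH was bait end minus prey start plus 1 on the read (negative, an insertion). A junction was deletional where prey and bait strands were equal. Genotypes were taken from the study's figures through matching Sγ1 counts, with the deposit's labels as an alternative. Libraries were compared by exact two-sided permutation within strata of the other gene and by exact sign flips, at an unadjusted threshold of 0.05 with Benjamini-Hochberg values beside it, with code in Python 3.11.15 (scipy 1.17.1, pandas 2.3.3) tested on simulated data. The rule for naming bins was the nearest, the farthest and the highest of each genotype. The 3rd, 4th and 11th bins below the edge were named outside that rule, as further examples. The members and lists were chosen with earlier results of these data known. Prey words of 30 bases at steps of 10 were matched to GRCm38, and no mm9 coordinate was converted. Alternatives were other edges, denominators, filters, groupings and left-out libraries, and, chosen after seeing the data, exact-base MH, bins under the other groupings and the 7 libraries with at least 20 tail junctions. The MH-only lists and 3 libraries of strain 129s were not used.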

Additional observations from a re-analysis of the deposited data

Results flagged for a closer look

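XLF loss went with opposite differences of the median tail distance in all libraries of the 2 SHLD1 backgrounds, 1377 bp longer in the SHLD1-proficient libraries (Xlf-/- against WT) and -1232 bp, that is shorter, in the SHLD1-deficient ones (Shld1-/-Xlf-/- against Shld1-/-). The difference between these differences was not tested. The WT medians rested on 25 junctions in all.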

How the results depend on the processing

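The higher tail share with SHLD1 loss kept its direction and stayed past the threshold under every tested alternative except the labels of the deposit, and so did the lower share of direct joints against internal Sμ under every alternative run, with exact permutation p from 0.00195 to 0.0156. Grouped by label, the differences were 7.59 points for SHLD1 loss and 6.11 for XLF loss in tail share, 1.26e+03 bp for SHLD1 loss in median distance, 5.39 and -3.86 points for SHLD1 and XLF loss in direct joints, and -3.53 and 14 points in MH over 3 bp, and 0 of the 14 tail bins separated by SHLD1. The XLF difference in tail share lost significance without mapping-flagged rows (2.82), with the upper edge 1 kb (1.47) or 2 kb lower (0.55), over all junctions (2.04) and without Sγ1 (4.27). With those edges the SHLD1 difference in median distance became 149 and -145 bp, the XLF one -733 and -707 bp, the SHLD1 difference in direct joints 0.975 and 0.155 points, and the inversional difference from internal Sμ 3.84 and 4.16 points. The 4 libraries with 1 genotype in both sources gave 2.57e+03 bp for SHLD1 loss, 3.38 points for SHLD1 loss in direct joints (the other sign), and 16.4 and 10.3 points for SHLD1 and XLF loss in MH over 3 bp (the other sign for XLF), with no test. With only the 7 libraries of at least 20 members, SHLD1 and XLF loss went with 5.25 and 2.64 points in inversional percentage, 791 and -1.23e+03 bp in median distance and, for SHLD1, 0.788 points in direct joints, and the differences from internal Sμ were -8.2 points in inversional percentage and -8.27 in direct joints. The causes were not tested.

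Leaving out 1 library at a time gave, for SHLD1 and then XLF loss, tail shares of 17.6 to 18.5 and 2.23 to 3.13 points, inversional percentages of -3.94 to 1.14 and -6.55 to -1.46, median distances of 1919 to 2258 bp and -104 to 235 bp, direct joints of -2.51 to 2.85 and -1.17 to 4.19 and MH over 3 bp of -1.70 to 15.0 and -11.0 to 5.64. Without WT repeat 2 both differences in direct joints passed the threshold, and without WT repeat 3 the SHLD1 difference in long MH did. Each removal took out the WT library with the highest share and left few WT joints, so neither result decides anything. Against internal Sμ the ranges were -4.99 to -0.252 (inversional), -15.0 to -11.2 (direct) and 1.20 to 8.49 points (MH over 3 bp). The within-repeat differences, a replicate block by printed repeat number with no test, gave 17.8 points for SHLD1 loss in tail share and turned the XLF differences in MH over 3 bp to 6.24 and in direct joints to -1.26 points, and no result moved by more than the spread between libraries. Depth limits the WT values, which rest on 25 members.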
